A study of Mus musculus with 26 samples.

Results

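Cytosolic ribosomal proteins are the protein part of the ribosomes outside mitochondria, and their genes are described here across 2 genotype labels of mouse cells. The genes were taken by symbol, as rows of the count tables named Rpl or Rps with a number and at most a suffix letter a, x, y or l with further digits, together with Rpsa, Rplp0, Rplp1 and Rplp2. Symbols with -ps and the S6 kinases (Rps6k) were left out. The rule took 88 of 52535 gene rows, of which 31 encode proteins of the small subunit, 46 proteins of the large subunit and 11 are paralogues or other rows that share the naming pattern. Of these 11, RefSeq lists Rps4l, Rps3a2, Rps3a3, Rpl6l and Rps12l1 as pseudogenes. A filter on low counts kept 87 of the 88, and Rps12l1, with 0 counts in all 4 libraries, was not tested.

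The series examined E14, a mouse embryonic stem cell (ESC) line, labelled wild type (WT) or Klf4 knockout (KO), under a title about KLF4, neural differentiation and the folding of chromatin. Klf4 encodes a DNA-binding protein that helps to maintain naive pluripotency. RNA-seq covered cultures labelled as neural progenitor cells (NPC) after neural induction to day 12. Each genotype label had 2 biological replicates. RNA polymerase II HiChIP, which enriches pairs of distant DNA fragments joined at sites bound by the polymerase, covered the same labels and was deposited as 1 loop list per genotype. Both genotypes came from ESCs kept on gelatin in serum with LIF and the inhibitors PD0325901 (of MEK) and CHIR99021 (of GSK3). How the knockout was made, and whether it is a single clone, is not given in the sources used here. ChIP-seq samples of undifferentiated ESCs were not analysed here.

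Ribosomal proteins are made in matched amounts, imported into the nucleolus and assembled there on ribosomal RNA, and surplus protein is degraded. Most of their messages begin with a C followed by a run of pyrimidines, the terminal oligopyrimidine (TOP) tract, through which mTORC1 and the RNA-binding protein Larp1 control how much of each message is translated. In ESCs translation is known to be kept low relative to later stages, and several paralogues of ribosomal proteins are known mainly from testis, muscle or the p53 response.

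The targeted gene went against the labels. Klf4 had 0 counts in both WT-labelled libraries, which allows up to 3 counts in each, but 2571 and 2538 counts in the KO-labelled ones. The labels were kept as deposited and every direction is KO-labelled over WT-labelled. Gene counts totalled 29835774 to 37703866 per library. Reads without a feature made up 6.05% to 6.16% of the column totals in WT-labelled and 8.00% to 8.07% in KO-labelled libraries. Markers of the labelled cell type were low and those of pluripotent cells high in both groups. The 8 neural progenitor markers summed to 100.4 to 104 CPM in WT-labelled and 136 to 144 CPM in KO-labelled libraries, with 6 of the 7 tested higher, 1 lower, and Fabp7 and Hes5 at 0 in the WT-labelled ones. The 9 pluripotency markers, all detected, summed to 8481 to 8498 CPM and 4569 to 4654 CPM, with 8 lower and 1 higher. The 6 neuron markers summed to 496 to 512 CPM and 206 to 212 CPM, with 3 higher and 2 lower of 5 tested and Dcx at 0 in the WT-labelled libraries. The 8 fibroblast and mesenchyme markers summed to 7.87 to 8.2 CPM and 439.9 to 454 CPM, with 7 of 7 tested higher and Dcn at 0 in the WT-labelled libraries, and the 6 endoderm markers to 1.05 to 1.34 CPM and 62.7 to 64.5 CPM, with 5 of 5 higher and Afp at 0 in the WT-labelled libraries. Glia markers (1 higher and 1 lower of 3 tested, Slc1a2 and Olig2 at 0 in the WT-labelled libraries) summed to 15.4 to 20.9 CPM over all libraries and endothelium and blood markers (2 higher and 1 lower of 3 tested, Tie1 and Ptprc at 0 in the WT-labelled and Hba-a1 in the KO-labelled libraries) to 73.5 to 96.2 CPM. The part of these shifts in the ribosomal protein results was not tested, and in bulk libraries fewer cells of a type and less RNA per cell cannot be told apart.

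As a family, ribosomal protein messages took a larger share of all gene counts in the KO-labelled libraries, while most single genes differed little. The 88 genes held 8.13% and 8.15% of gene counts in the WT-labelled libraries, against 9.73% and 9.90% in the KO-labelled ones, with no overlap between the groups. The means were 8.14% ± 0.011 and 9.81% ± 0.118 (SD, n = 2), a difference of 1.68 percentage points with an exact permutation p = 0.333, two-sided, the smallest that 2 libraries against 2 can give. How far this reads as a rise depends on the scaling. With TMM factors, which centre the bulk of genes, the family summed to 87294 and 87747 counts per 1000000 (CPM) in WT-labelled and 90510.2 and 91989.8 CPM in KO-labelled libraries, a mean difference of 4.26%, against 20.6% with library size alone. Library size alone also moved the median log2 fold change of all genes tested up by 0.21, from 0.026 to 0.24. The family's median lay 0.017 above the all-gene median. Changing the scaling shifts all genes by nearly the same amount, so this difference could hardly change with it.

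Of the 87 genes tested, 40 were higher, 31 lower and 16 did not pass edgeR's quasi-likelihood test at a Benjamini-Hochberg adjusted p below 0.05 with TMM scaling, and with library size alone 62 were higher and 9 lower. The share of all 17273 genes called was 73.0% in either direction, 37.2% higher and 35.8% lower with TMM, and 45.2% and 27.7% with library size alone, beside 71 of 87 ribosomal protein genes called with TMM. The changes were of small size. At least 1.5-fold changes were called higher for 1 gene and lower for 6, where the background was 28.1% and 21.6% of all genes (49.6% in either direction). Within 1.5-fold lay 80 of 87 genes (92.0%), compared with 43.8% of all genes, and the interquartile range of the log2 fold change was 0.37 compared with 1.51. The median log2 fold change was 0.043, beside 0.026 for all genes. Under library size alone 19 of the 87 turned sign, 16 of them called lower with TMM. Of all 17273 genes 1505 turned sign, 373 of them called lower with TMM. Replicates lay close together, with a median absolute log2 difference per gene of 0.021 between the WT-labelled and 0.043 between the KO-labelled libraries.

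**Figure D1:**
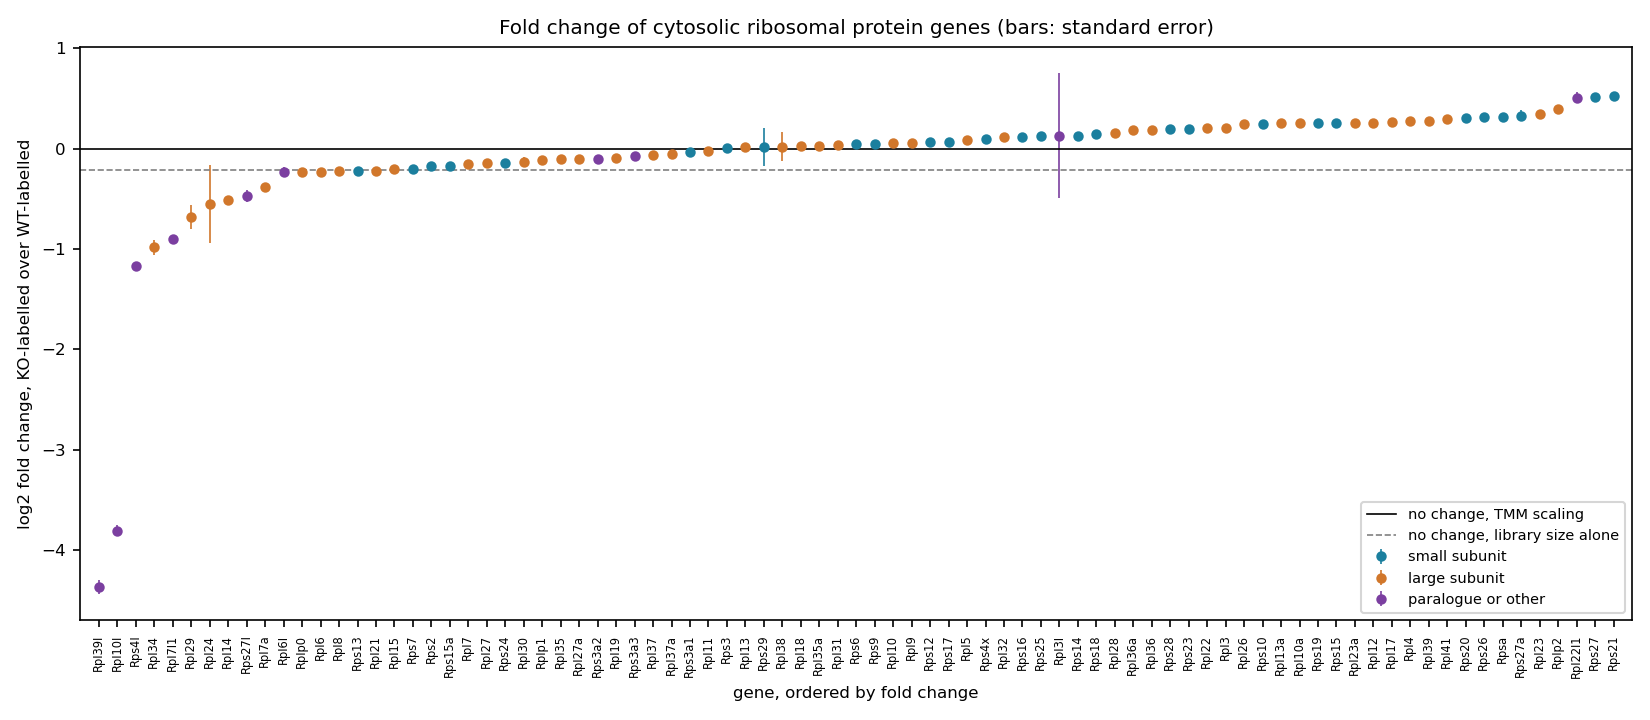
Log2 fold change (KO-labelled over WT-labelled, TMM scaling) of 83 of the 87 ribosomal protein genes tested, ordered by value, with the standard error as bars and the subunit as colour. Of the 87 genes 80 lie within 1.5-fold of no change. Rpl39l (-4.37) and Rpl10l (-3.81) stand far below the rest. The dashed line shows where no change would lie with library size alone, which turns the sign of 19 of the 87 genes (1505 of all 17273).

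Small-subunit genes were more often higher than lower. Of 31, 18 were higher, 5 lower and 8 did not pass (median log2 fold change 0.093), and with library size alone 26 were higher and 0 lower. Across all genes tested, 37.2% were higher and 35.8% lower with TMM, and 45.2% and 27.7% with library size alone. None reached 1.5-fold. Rps21, a small protein of the subunit, measured 478 and 473 CPM in the WT-labelled libraries, against 699 and 666 CPM in the KO-labelled ones, a log2 fold change of 0.52 ± 0.027 (standard error, here and for other fold changes, n = 2 per group; edgeR adjusted p = 9.82e-15). Rps27, a zinc-finger protein of the small subunit, measured 449.7 and 436 CPM in the WT-labelled libraries, against 643 and 623 CPM in the KO-labelled ones, a log2 fold change of 0.52 ± 0.027. Both KO-labelled libraries lay above both WT-labelled ones for each of these genes. Rps27a, which is made as a fusion with ubiquitin, followed at 954 and 1043 CPM under the WT label and 1216 and 1293 CPM under the KO label, a log2 fold change of 0.33 ± 0.051. Rpsa, also known as the laminin receptor, measured 2633 and 2647 CPM under the WT label and 3303 and 3279 CPM under the KO label, a log2 fold change of 0.32 ± 0.02, without overlap.

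At the mRNA channel of the small subunit Rps2 was called lower and Rps3 and Rps3a1 did not pass. Rps2 measured 2636 and 2649 CPM under the WT label and 2273 and 2424 CPM under the KO label, and its log2 fold change of -0.17 ± 0.025 turned to 0.04 with library size alone. Rps3 measured 2171 and 2207 CPM under the WT label and 2182 and 2219 CPM under the KO label, and the groups interleaved. Rps3a1 measured 433 and 433 CPM under the WT label and 406 and 441 CPM under the KO label, with overlap between the groups and a log2 fold change of -0.033 ± 0.033. Rps3a1 shares sequence with the pseudogenes Rps3a2 and Rps3a3, so the split of reads between the 3 rows is uncertain.

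Promoters of canonical genes that were higher (Rps21, Rps27, Rplp2 and Rpl4), lower (Rpl14 and Rpl7a) or not called (Rps6) are shown to place their annotated starts beside the changes of their messages. Rps21 has 2 annotated starts, of which the upstream start is shown. Each line gives 60 bases before and 20 bases from the annotated start in GRCm38.p6 (RefSeq), on the coding strand from 5′ to 3′. Capitals mark a C followed by at least 4 pyrimidines (C or T) that begins within 10 bases of the annotated start, or the annotated start base where there is none. Where several such C bases lie in this window the nearest to the start is marked, and pyrimidines may run on upstream of it. The regions are Rps21 (chr2:180257319-180257398, plus strand), Rps27 (chr3:90213629-90213708, minus strand), Rplp2 (chr7:141447591-141447670, plus strand), Rpl14 (chr9:120571457-120571536, plus strand), Rpl7a (chr2:26910747-26910826, plus strand), Rps6 (chr4:86857348-86857427, minus strand) and Rpl4 (chr9:64173327-64173406, plus strand).
Rps21: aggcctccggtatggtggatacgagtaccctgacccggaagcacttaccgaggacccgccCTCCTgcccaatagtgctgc
Rps27: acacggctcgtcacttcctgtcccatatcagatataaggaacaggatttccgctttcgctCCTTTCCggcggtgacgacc
Rplp2: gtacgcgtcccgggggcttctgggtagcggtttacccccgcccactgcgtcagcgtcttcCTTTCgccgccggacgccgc
Rpl14: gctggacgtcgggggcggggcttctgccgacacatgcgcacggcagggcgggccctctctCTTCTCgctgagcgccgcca
Rpl7a: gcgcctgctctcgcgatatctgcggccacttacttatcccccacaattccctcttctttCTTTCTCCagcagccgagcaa
Rps6: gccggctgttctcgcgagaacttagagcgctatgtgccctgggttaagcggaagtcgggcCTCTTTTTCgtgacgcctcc
Rpl4: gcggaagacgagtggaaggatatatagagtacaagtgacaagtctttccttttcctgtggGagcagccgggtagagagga
In Rps27, Rplp2, Rpl14, Rps6 and the upstream start of Rps21 the marked tract begins exactly at the annotated start, and in Rpl7a 1 base before it. Pyrimidines run on upstream of the mark, as in Rpl14 and Rpl7a. In Rpl4 no such tract began in this window, though a run of pyrimidines that began further upstream ended inside it. The other annotated start of Rps21 has none within 10 bases. Genes with the tract at the start shown stood on both sides: Rps21, Rps27 and Rplp2 were higher, Rpl14 was lower and Rps6 did not pass.

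Across the family, RefSeq promoters were at hand for 63 of the 88 genes. A tract began within 10 bases of an annotated start in 39 of the 63 (61.9%), compared with 34.4% of 27025 genes in the promoter table and 37.2% of the tested genes it covers. Exactly at the start it was found in 13 of the 63 (20.6%), compared with 3.01% and 3.08%. The letters TATAAA occurred in the 50 bases upstream of 1 gene, Rpl22l1 (1.59%, compared with 3.15% and 1.82%). CACGTG is a palindrome read the same on both strands and the core of the E-box bound by Myc family proteins. It occurred in the 250 bases before an annotated start of Rpl13a, Rpl14, Rpl19, Rpl34 and Rps19. These were 7.94%, compared with 6.86% of genes in the table and 9.66% of the tested genes it covers. A match that runs across the start, as in Rpl23, was not counted. These are letter matches and not measured start sites or binding.

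Large-subunit genes fell into nearly equal groups with TMM scaling, 21 higher, 18 lower and 7 not passing of 46 (median 0.027), and 33 higher against 4 lower with library size alone. The shares of all genes were 37.2% higher and 35.8% lower with TMM, and 45.2% and 27.7% with library size alone. Rpl23, which also binds the p53 regulator Mdm2 when free of the ribosome, measured 772 and 800.3 CPM under the WT label and 978 and 1027 CPM under the KO label, a log2 fold change of 0.35 ± 0.027. Rpl4, whose extended loop lines the exit tunnel, measured 3012 and 3019.8 CPM under the WT label and 3631 and 3667 CPM under the KO label, a log2 fold change of 0.27 ± 0.02.

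The canonical falls of largest size included genes with few counts. Rpl34 measured 50 and 52.4 CPM in the WT-labelled libraries, against 24.4 and 27.4 CPM in the KO-labelled ones, a log2 fold change of -0.98 ± 0.075. Rpl29 measured 21.4 and 21.5 CPM under the WT label and 11.5 and 15.2 CPM under the KO label, a log2 fold change of -0.68 ± 0.12, with no overlap. Rpl24, a protein of the bridges between the subunits, had only 62, 51, 52 and 34 counts in the 4 libraries and did not pass (log2 -0.55 ± 0.39, edgeR adjusted p = 0.206). Ribosomal protein genes have many near-identical processed copies in the genome, and 7.06% to 7.69% of column totals were reads without a unique alignment, so the counts of these rows are uncertain; the part of such reads in these low counts was not tested. Among well-counted genes, Rpl14 fell from 1269 and 1278 to 897 and 892 CPM (log2 -0.51 ± 0.023, edgeR adjusted p = 3.66e-16). Rpl7a, whose gene hosts small nucleolar RNAs in its introns, fell from 1566 and 1585 to 1218 and 1197 CPM (log2 -0.38 ± 0.022). Both kept their direction with library size alone, at -0.30 and -0.17.

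The stalk, which recruits translation factors to the large subunit, was split. Rplp0, its base, measured 1908 and 1952 CPM under the WT label and 1633 and 1656 CPM under the KO label, and was called lower (log2 -0.23 ± 0.022), with -0.021 and no call under library size alone. Rplp1 measured 2077 and 2136 CPM under the WT label and 1924 and 1984 CPM under the KO label and was lower by TMM (-0.11 ± 0.022), but higher by library size alone (0.10). Rplp2, the binding partner of Rplp1, measured 767 and 758 CPM under the WT label and 1022 and 987 CPM under the KO label and was higher under both (0.40 ± 0.025 and 0.61). Rpl12, which sits beside Rplp0, measured 1537 and 1571 CPM under the WT label and 1891 and 1820.5 CPM under the KO label and was higher (0.26 ± 0.023).

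Rpl5 and Rpl11, which join the ribosome with the 5S ribosomal RNA and bind Mdm2 when assembly fails, moved little. Rpl5 measured 1689 and 1687 CPM under the WT label and 1793 and 1799 CPM under the KO label and was called higher at 0.089 ± 0.021. Rpl11 measured 889 and 873 CPM under the WT label and 881 and 855 CPM under the KO label, with overlapping groups, and did not pass with TMM (-0.021 ± 0.024, edgeR adjusted p = 0.447), whereas it was called higher with library size alone (0.19). Of 8 proteins at the peptide exit tunnel, through which the growing chain leaves, 5 were higher, Rpl19 and Rpl35 were lower and Rpl31 did not pass, beside 37.2% of all genes higher and 35.8% lower. All 8 were positive with library size alone, where the median was 0.46 compared with 0.25 with TMM.

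The 5 ribosomal protein genes with the highest mean CPM, a value not corrected for transcript length and therefore not ordered here, were Rpl4, Rpsa, Rps2, Rpl8 and Rps3. Rpl8, a protein close to the catalytic centre, measured 2573 and 2619.8 CPM under the WT label and 2212 and 2237 CPM under the KO label and was lower with TMM (-0.22 ± 0.021), and did not pass with library size alone (-0.013).

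Of the canonical proteins, 15 did not pass with TMM, among them Rps3, Rps3a1, Rps6, Rps9, Rps29, Rpl11, Rpl13, Rpl18, Rpl24, Rpl31, Rpl35a and Rpl38. The log2 fold changes of these named genes, Rpl24 aside, ran from -0.033 to 0.044, and with library size alone all of them but Rpl24 were positive, from 0.18 to 0.25. Rps6, the substrate of the S6 kinases, measured 1879.9 and 1872 CPM under the WT label and 1947 and 1919 CPM under the KO label (log2 0.043 ± 0.021, edgeR adjusted p = 0.0714). For Rps29 and Rpl38, the latter known from skeletal patterning in mice, the KO-labelled replicates stood apart. Rps29 measured 415 and 401 CPM under the WT label and 357 and 469 CPM under the KO label, and Rpl38 349.6 and 339.9 CPM under the WT label and 313 and 386 CPM under the KO label, each with 1 KO-labelled library below and 1 above both WT-labelled ones. Without KO replicate 1 their log2 fold changes were 0.20 and 0.16, and without KO replicate 2 they were -0.20 and -0.14, called in all 4 cases. Leaving out KO replicate 1 also brought Rpl18, Rpl31, Rpl35a and Rps9 past the threshold as higher. Leaving out KO replicate 2 brought Rps3a1 past it as lower and Rps6 as higher.

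Paralogues and other rows were mostly lower, with 8 lower and 1 higher of 10 tested (median -0.35), and with library size alone 5 lower and 3 higher. Across all genes, 35.8% were lower and 37.2% higher with TMM, and 27.7% and 45.2% with library size alone. Rpl39l, a copy of the exit-tunnel protein Rpl39 known from male germ cells, measured 140.0 and 136 CPM in the WT-labelled libraries, against 6.85 and 6.47 CPM in the KO-labelled ones, a 20.7-fold fall (log2 -4.37 ± 0.068, edgeR adjusted p = 2.70e-25). Rpl10l, an intronless copy of the X-linked Rpl10 that is needed in meiosis of male germ cells, measured 198 and 194 CPM in the WT-labelled libraries, against 14.7 and 13.3 CPM in the KO-labelled ones, a 14-fold fall (log2 -3.81 ± 0.055, edgeR adjusted p = 6.09e-26). For both, the KO-labelled libraries were low together and the WT-labelled ones high together, by far more than the replicates differed. Their partners did not fall: Rpl39 was higher, with 426 and 407 CPM under the WT label and 505 and 506 CPM under the KO label (log2 0.28 ± 0.028), and so was Rpl10, with 1367 and 1365 CPM under the WT label and 1413 and 1429 CPM under the KO label (log2 0.057 ± 0.022).

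The promoters of both pairs are shown to compare a copy with its parent gene, under the same marking as before. The regions in GRCm38.p6 (RefSeq) are Rpl39l (chr16:10170168-10170247, plus strand), Rpl39 (chrX:37085203-37085282, minus strand), Rpl10l (chr12:66284382-66284461, minus strand), Rpl10 (chrX:74270756-74270835, plus strand) and, for the paralogue that rose, Rpl22l1 (chr3:28805448-28805527, plus strand).
Rpl39l: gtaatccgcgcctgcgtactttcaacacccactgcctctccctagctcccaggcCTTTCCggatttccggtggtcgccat
Rpl39: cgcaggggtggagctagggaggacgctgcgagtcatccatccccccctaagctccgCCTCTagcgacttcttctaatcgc
Rpl10l: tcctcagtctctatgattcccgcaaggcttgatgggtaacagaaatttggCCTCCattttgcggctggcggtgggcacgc
Rpl10: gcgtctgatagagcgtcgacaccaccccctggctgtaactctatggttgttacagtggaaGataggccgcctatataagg
Rpl22l1: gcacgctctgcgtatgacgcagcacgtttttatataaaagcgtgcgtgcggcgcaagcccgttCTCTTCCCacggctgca
A tract of C and pyrimidines was found within 10 bases of the start in Rpl39l, Rpl39, Rpl10l and Rpl22l1 and not in the window of Rpl10, and in none of these 5 did it begin exactly at the annotated start.

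The share of a paralogue in the summed counts of its pair does not depend on the scaling. Rpl39l took 24.7% and 25% of the pair in the WT-labelled libraries, against 1.34% and 1.26% in the KO-labelled ones. Rpl10l took 12.6% and 12.5% of the pair in the WT-labelled libraries, against 1.03% and 0.923% in the KO-labelled ones. In these pairs the copy went from a sizeable part of the counts to a small one. Rps4l, which RefSeq lists as a transcribed pseudogene, took 28.1% and 27.8% of the pair in the WT-labelled libraries, against 13.6% and 14.2% in the KO-labelled ones, the pair being completed by the X-linked Rps4x. Rps27l, a paralogue of Rps27 known as a p53 target, took 39.8% and 40.5% of the pair in the WT-labelled libraries, against 23.6% and 26.9% in the KO-labelled ones. Rpl7l1, a nucleolar relative of Rpl7, took 16.4% and 16.9% of the pair in the WT-labelled libraries, against 10.5% and 10.6% in the KO-labelled ones. All 5 were lower in both KO-labelled libraries than in both WT-labelled ones. Counts of a pair are not corrected for transcript length, and reads that fit both copies may be missing from either.

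**Figure D2:**
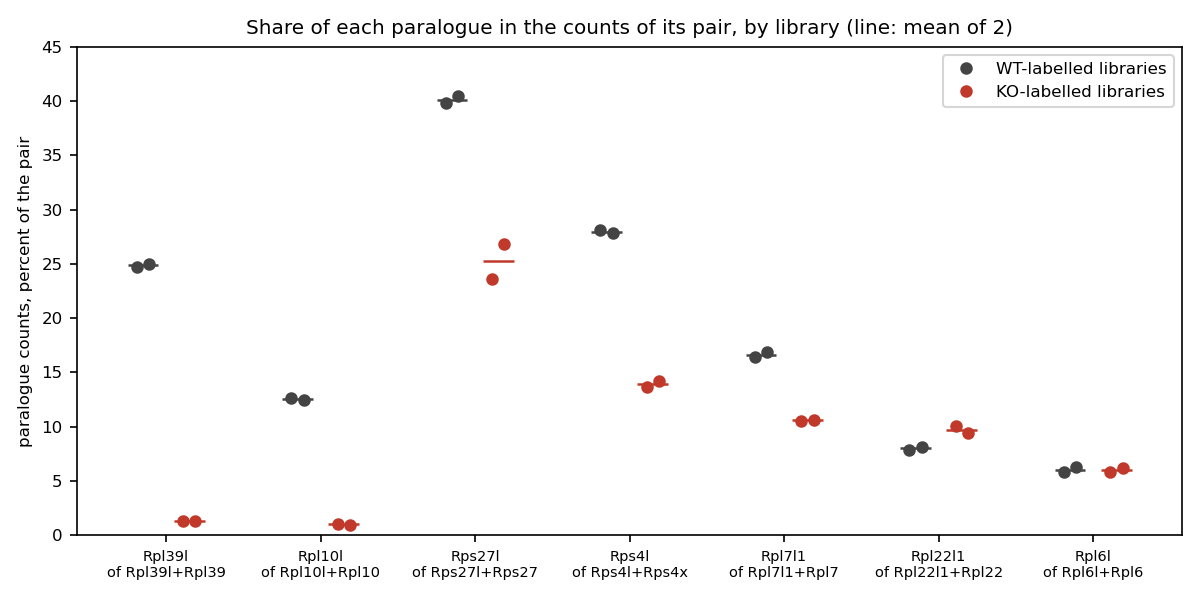
Counts of 7 paralogues as a percentage of the counts of the paralogue and its partner together, by library (points) with the mean of each group (line), a ratio that no scaling changes. Rpl39l, Rpl10l, Rps27l, Rps4l and Rpl7l1 have lower shares in both KO-labelled libraries, Rpl22l1 a higher one, and Rpl6l overlapping shares.

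In CPM, Rps4l measured 599 and 591 CPM under the WT label and 258 and 272 CPM under the KO label (log2 -1.17 ± 0.03), Rpl7l1 361 and 373 CPM under the WT label and 199 and 193 CPM under the KO label (log2 -0.90 ± 0.032) and Rps27l 298 and 296 CPM under the WT label and 199 and 229 CPM under the KO label (log2 -0.47 ± 0.058), all called lower under both scalings. Rpl22l1, a paralogue of the RNA-binding protein Rpl22, was the exception. It measured 59.3 and 62.8 CPM under the WT label and 87.1 and 86.6 CPM under the KO label, a log2 fold change of 0.51 ± 0.052 (edgeR adjusted p = 4.22e-09), and its share of the pair went from 8.01% ± 0.21 to 9.72% ± 0.446 (SD, n = 2). Rpl22 itself was higher at 0.20 ± 0.028. Rpl3l, the muscle form of Rpl3, was at 0.911 and 0.253 CPM under the WT label and 0.496 and 0.808 CPM under the KO label, with overlapping groups and no call.

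The pseudogene rows Rps3a2, Rps3a3 and Rpl6l were called lower with TMM, at -0.10 ± 0.036, -0.076 ± 0.028 and -0.23 ± 0.047. With library size alone the first pair turned to 0.11 and 0.13 and Rpl6l did not pass (-0.024). The call of Rps3a2 was lost without KO replicate 2 (log2 -0.041) and with DESeq2, and that of Rps3a3 without KO replicate 1 (-0.037). Rpl6l had similar shares of the Rpl6 pair in both groups, 6.03% ± 0.362 and 6.01% ± 0.292 (SD, n = 2). A further 276 rows carry ribosomal protein names with -ps. With TMM, 16 of the 97 tested were higher and 7 lower, beside 37.2% and 35.8% of all genes.

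Proteins of the ribosome whose names fall outside the pattern were read beside the family. Rps27rt, a copy of Rps27, was higher at 0.53 ± 0.081 (38 and 35.9 CPM under the WT label and 48 and 58.8 CPM under the KO label). Rack1, a signalling scaffold on the small subunit, was lower at -0.46 ± 0.02 (3388 and 3346 CPM under the WT label and 2461 and 2419 CPM under the KO label). Fau, made as a fusion of a ubiquitin-like and a small-subunit protein, was lower with TMM (-0.18 ± 0.026) and turned to 0.026 with library size alone. Rpl36al, a copy of Rpl36a, did not pass.

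Genes that build ribosomes were mostly lower. Beside the counts of this list and the next ones, 35.8% of all genes were lower and 37.2% higher with TMM. The shares were 27.7% and 45.2% with library size alone. Of 52 tested assembly factors, 51 were lower and 0 higher with TMM (median -0.81), and 48 were lower and 1 higher with library size alone; 1 was also higher without KO replicate 1. Bop1, needed to process the RNA of the large subunit, fell from 217 and 225 to 71.4 and 68.4 CPM (log2 -1.66 ± 0.04). Pno1, a late factor of the small subunit, fell from 148 and 144 to 55.2 and 56 CPM (log2 -1.39 ± 0.045). In neither did the groups overlap.

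RNA polymerase I, which transcribes ribosomal RNA, and its factors gave 12 lower and 0 higher of 14 (median -0.63), and 10 lower and 1 higher with library size alone. The largest falls were those of the subunit Cd3eap (65.8 and 73.7 CPM under the WT label and 21.2 and 20.6 CPM under the KO label, log2 -1.74 ± 0.072) and Polr1e (log2 -0.98 ± 0.071). Initiation, elongation and release factors gave 19 lower and 2 higher of 22 (median -0.61), and 18 and 2 with library size alone. Among them Eif2s2, a subunit of the factor that carries the initiator tRNA, measured 1228 and 1249 CPM under the WT label and 443 and 471 CPM under the KO label (log2 -1.44 ± 0.028) and Etf1, the release factor, had a log2 fold change of -1.05 ± 0.027. The 2 of this list that rose were the helicase Eif4a2 at 0.50 ± 0.024 and the start-codon factor Eif1 at 0.27 ± 0.03. Some translation factors with TOP tracts were placed in a separate list given below, among them Eef2 and Eif4b, which were higher, and Eef1d, which was lower. Mitochondrial ribosomal proteins, which serve a separate ribosome, gave 70 lower and 2 higher of 77 (median -0.73), and 60 and 3 with library size alone. The largest changes in each direction were those of Mrpl19 at -2.21 ± 0.079, Mrpl55 at -1.56 ± 0.084, Mrpl23 at 1.41 ± 0.063 and Mrpl48 at 0.41 ± 0.085.

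Other messages with TOP tracts were mixed, 13 lower and 5 higher of 19 (median -0.29), and 10 lower and 7 higher with library size alone. Eef2, the elongation factor that moves the ribosome along, measured 4146 and 4180.3 CPM under the WT label and 5752 and 5666 CPM under the KO label (log2 0.46 ± 0.019), and Eif4b, a helper of the cap-binding complex, was higher at 0.47 ± 0.026. Eef1d and Eif3k were lower at -1.06 ± 0.028 and -0.82 ± 0.03. The medians of these lists stand beside 0.093 for the small and 0.027 for the large subunit and 0.026 for all genes. Values of a list are a description, and no test of the list was made.

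**Figure D3:**
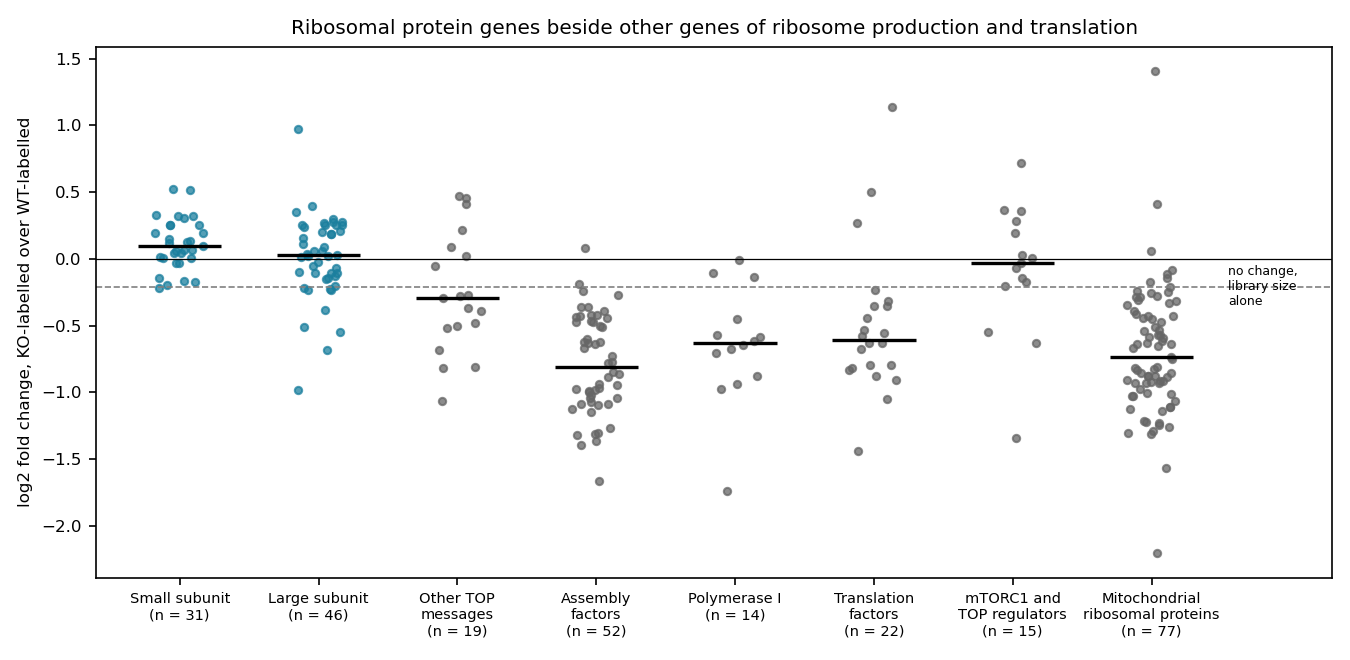
Log2 fold change (KO-labelled over WT-labelled, TMM scaling) of each tested gene (points) and the median (bar) of small-subunit and large-subunit proteins and of 6 other lists. Some translation factors, such as Eef2, Eif4b and Eef1d, are drawn with the other TOP messages and not with the translation factors. The medians of assembly factors (-0.81), polymerase I (-0.63), translation factors (-0.61) and mitochondrial ribosomal proteins (-0.73) lie below 0 with TMM and also below the dashed line for no change with library size alone, whereas the subunit medians lie near 0 with TMM and above the dashed line.

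Regulators of these genes included some that were higher and some that were lower. Of 15 tested genes of the mTORC1 pathway and TOP message regulators, 5 were higher and 7 lower (median -0.035), beside 37.2% and 35.8% of all genes, and 9 were higher and 3 lower with library size alone, beside 45.2% and 27.7%. Eif4ebp1, the translation repressor that mTORC1 inactivates, fell from 451 and 455 to 177 and 180.2 CPM (log2 -1.34 ± 0.03), and Tsc2, an inhibitor of the pathway, was lower at -0.63 ± 0.044. The mTORC1 inhibitors Ddit4 and Deptor were higher at 0.72 ± 0.046 and 0.37 ± 0.069. Larp1, which binds TOP tracts, did not pass (423 and 433 CPM under the WT label and 439.7 and 432 CPM under the KO label). Of 8 transcription regulators tied to growth, 1 was higher and 6 lower, and 3 higher and 4 lower with library size alone. Mycn rose from 114 and 113 to 282 and 280.3 CPM (log2 1.31 ± 0.034), whereas Myc, at 19.6 and 18.3 CPM under the WT label and 21.3 and 20.1 CPM under the KO label, did not pass. Gabpa and Max, the partner of Myc proteins, were lower at -1.54 ± 0.033 and -0.94 ± 0.048.

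Among 2186 non-member genes of at least 100 mean CPM, the patterns over the 4 libraries closest to the mean pattern of the canonical proteins were those of Scaf1, Rnf220, Ppp1r12a, Spin1 and Dot1l. Their Euclidean distances, taken on centred log2 CPM with TMM scaling and a pseudocount of 0.5 CPM, ran from 0.0172 to 0.024, and their log2 fold changes with TMM from 0.052 to 0.07. None of the 5 passed the test with TMM, whereas all 5 were called higher with library size alone (log2 0.26 to 0.28). These genes were picked by closeness over the same 4 libraries, so fold changes like those of the family follow from the choice. Library size alone shifts all genes up by nearly the same amount. The calls are therefore no separate result about these genes.

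Polymerase II loops were read at each gene as loops with an anchor within 2500 bases of either annotated end, kept at a false discovery rate of at most 0.01 and at least 2 paired-end tags. Such a loop was present for 71 of 88 genes (80.7%, 95% Clopper-Pearson interval 70.9% to 88.3%) in the WT-labelled list and 76 (86.4%, 77.4% to 92.8%) in the KO-labelled list. The background over all tested genes with a position was 46.5% and 63.4%. Both lists held 68 of the genes, the WT-labelled list alone Rpl39l, Rpl5 and Rps23, and the KO-labelled list alone Rpl22, Rpl22l1, Rpl29, Rpl3l, Rps13, Rps3, Rps4l and Rps6. Neither held Rpl10l, Rpl15, Rpl21, Rpl36a, Rps4x or the pseudogene rows Rpl6l, Rps12l1, Rps3a2 and Rps3a3. Each list pools its replicates, so no test was possible and intervals cover counting error only. Klf4 went against the labels in the RNA libraries, and whether the labels of the loop lists share this cannot be told. Loops and messages are therefore set side by side by label alone.

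The lists differed in extent, with 22148 kept loops, 175142 tags and anchors over 61.6 Mb in the WT-labelled list and 57463 loops, 285890 tags and 115 Mb in the KO-labelled one. Loops at ribosomal protein genes held 2742 tags in 467 loops, 1.57% (1.51% to 1.62%) of kept tags, in the WT-labelled list and 3202 tags in 708 loops, 1.12% (1.08% to 1.16%), in the KO-labelled list. A mean loop at these genes held 5.87 and 4.52 tags, compared with 7.91 and 4.98 over all kept loops. By gene, 34 of 79 with a tag had the larger share of tags in the KO-labelled list (43.0%), compared with 61.5% of 11208 tested genes. Over all loops in the lists, without a threshold, the family's shares were 1.55% and 0.858%, and 16 genes had the larger share in the KO-labelled list and 69 in the WT-labelled one. These 69 were 81.2% of the 85 genes with a tag, compared with 52.3% of 13840 tested genes with a tag. Between these readings 24 genes turned direction. Neighbouring genes of the family can share anchors, so the same tag may count at several genes in these by-gene counts.

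Among the 6 genes with the most kept tags were Rpl23a, Rpl19, Rpl23, Rps10 and Rpl13a. Rpl23a, an exit-tunnel protein at chr11:78180935-78183584, had 190 tags in the WT-labelled list and 206 in the KO-labelled list, or 10.8 (9.36 to 12.5) and 7.21 (6.26 to 8.26) per 10000 kept tags. Rpl23, at chr11:97777526-97782439, had 167 tags in the WT-labelled list and 106 in the KO-labelled list, or 9.54 and 3.71 per 10000. Rpl13a had 139 tags in the WT-labelled list and 106 in the KO-labelled list, or 7.94 and 3.71 per 10000. Rps10 had 125 tags in the WT-labelled list and 128 in the KO-labelled list, or 7.14 and 4.48 per 10000. These 4 genes had the larger share in the WT-labelled list, also over all loops. At each of them the anchor of the strongest loops was wider in the WT-labelled list. At Rpl23 it was chr11:97775283-97783695 against chr11:97780556-97783695. Counting all loops does not remove this difference in width, and its part in the shares was not tested. Rpl19, at chr11:98022003-98030493, went the other way among kept loops, with 89 tags in the WT-labelled list and 266 in the KO-labelled list, or 5.08 (4.08 to 6.25) and 9.3 (8.22 to 10.5) per 10000, but not over all loops, where the values were 4.99 and 4.38. Its KO-labelled tags include loops from a neighbouring anchor at Stac2 (chr11:98032864-98037968), which lies within 2500 bases of the Rpl19 end. They included a loop of 19 tags from that anchor to chr11:98040139-98044742.

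**Figure D4:**
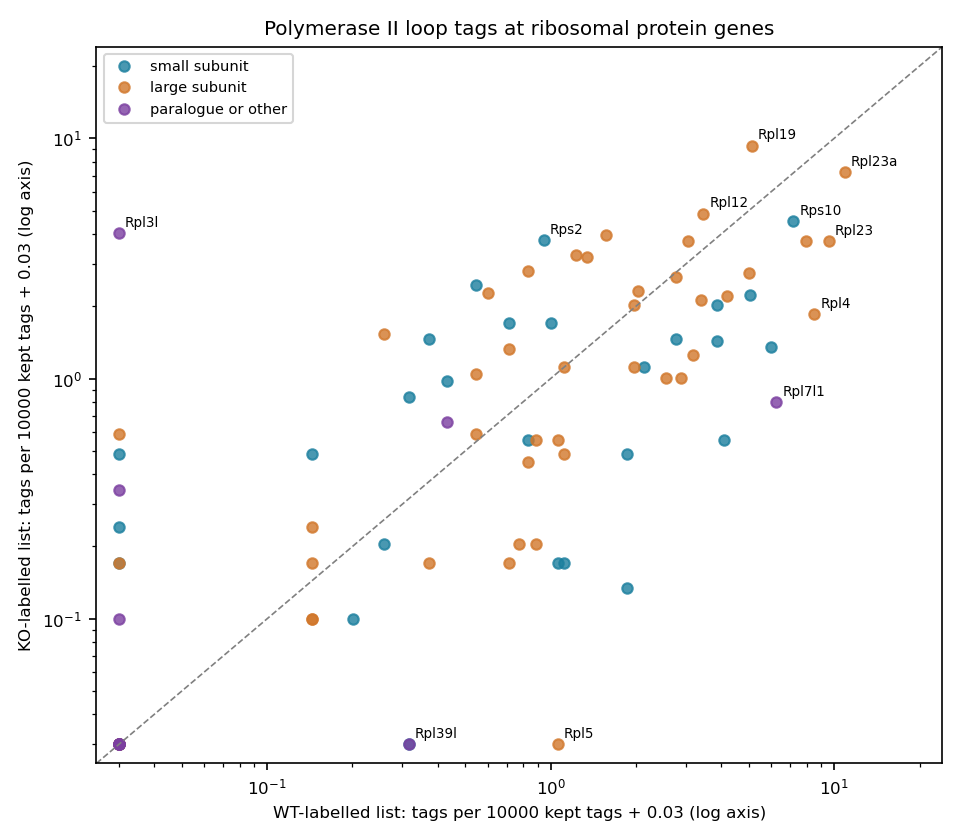
Tags in kept loops at 84 of the 88 ribosomal protein genes per 10000 kept tags, WT-labelled list (x) against KO-labelled list (y), both plus 0.03 on log axes, with the line of equal share. Rpl7l1 and Rpl4 lie below the line, Rpl19 and Rps2 above it; the latter pair turns side when all loops are counted.

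Genes with large differences between the lists were chosen after their loop values were seen. Rpl7l1, at chr17:46773907-46782656, had 109 tags in the WT-labelled list and 22 in the KO-labelled list, or 6.22 (5.11 to 7.51) and 0.77 (0.482 to 1.17) per 10000 kept tags, with 4.76 and 1.36 per 10000 over all loops, and its message was lower by label. Rpl4 had 148 tags in the WT-labelled list and 52 in the KO-labelled list, with 4.72 and 1.43 over all loops, and its message was higher by label. Its anchor in the WT-labelled list was chr9:64170377-64181438. The KO-labelled list had narrower anchors there, chr9:64171525-64175274 and chr9:64176997-64180192. The part of anchor width in this difference was not tested. Each pairing of loop and message would turn if the labels of only 1 of the assays were exchanged.

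At Rpl39l, at chr16:10170197-10174911, kept loops held 5 tags in the WT-labelled list and 0 in the KO-labelled list, and over all loops 26 and 0 tags. Rpl10l, at chr12:66283379-66284401, had no kept loop and 2 and 0 tags over all loops. Rpl3l, at chr17:24727826-24736143, had 114 kept tags in the KO-labelled list and 0 in the other, and over all loops 237 and 24 tags, while its message was near 0 in both groups. It lies 5898 bases from Rps2 and shares anchors with it. In the KO-labelled list the anchor at Rps2 ended at 24725839, within 2500 bases of Rpl3l, so its loops also counted at Rpl3l. The anchor at Rps2 in the WT-labelled list ended at 24725159, outside that window. Rps2 had 16 tags in the WT-labelled list and 107 in the KO-labelled list among kept loops, and turned side over all loops, with 2.16 and 2 per 10000 (WT-labelled and KO-labelled list). Over the 68 genes with kept tags in both lists, the log2 ratio of tag shares and the log2 fold change of the message had Spearman's rho of -0.081 and Pearson's r of 0.0059, given as a description across genes that share the same lists and libraries. Their signs rest on the labels in the same way.

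Some loops joined 2 ribosomal protein genes. Rpl19 and Rpl23, on chromosome 11, were joined by 4 tags over 249 kb in the WT-labelled list and by 8 tags over 240 kb and 3 tags over 253 kb in the KO-labelled list. The loop of 3 tags reached Rpl19 through the neighbouring anchor at Stac2. Rpl14 and Rpsa, on chromosome 9, were joined by 3 tags in each list, over 446 and 444 kb. Rpl10a and Rps10, on chromosome 17, were joined by 2 tags in each list, over 699 and 689 kb. Rpl3l and Rps2 were joined by 11 tags over 14.4 kb in the KO-labelled list alone, among kept loops. Apart from Rpl3l with Rps2, these pairs were joined in both lists.

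Other far anchors lay at named neighbours, chosen after the values were seen. Rpl23 was joined to Lasp1 in both lists, by 47 tags over 29.4 kb (WT-labelled) and 18 tags over 18.8 kb (KO-labelled). The far anchor in the WT-labelled list was chr11:97798515-97819291, a stretch that overlapped several narrower anchors in the KO-labelled list. There Rpl23 was also joined to chr11:97804194-97810109 (15 tags) and chr11:97811259-97828681 (28 tags). The 47 and 18 tags therefore do not cover the same stretch. Rpl7l1 was joined to Bicral by 2 kept loops of 62 tags in all in the WT-labelled list, with no kept loop between them in the other. The stronger loop held 42 tags over 13.7 kb. Rpl19 was joined to Stac2 by 38 tags over 13.2 kb in the KO-labelled list, with no kept loop between them in the WT-labelled one. That Stac2 anchor lay within 2500 bases of the annotated end of Rpl19, so both anchors of this loop counted at Rpl19. Rps10 was joined to Hmga1 by 2 kept loops in each list, of 35 tags in all (WT-labelled) and 30 tags in all (KO-labelled). The stronger loop held 21 tags over 74.5 kb (WT-labelled) and 17 tags over 82.2 kb (KO-labelled).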

How the data were processed

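Each RNA-seq file holds raw counts per gene symbol for 1 library, deposited by the authors without normalization. The submitters' processing notes name HISAT2 2.1.0, DESeq2 1.18.1, featureCounts 2.0.3, MACS2 2.2.7.1, Bowtie2 2.4.4, HiC-Pro 2.11.1 and the build mm10. The last rows of each file look like output of htseq-count, so the counting program is uncertain, and neither annotation nor strandedness is stated, so antisense overlaps cannot be separated. Those 5 rows name no gene and entered neither library sizes nor tests. They are reads without a feature (6.05% to 8.07% of the column total), ambiguous reads (4.19% to 4.41%), reads without a unique alignment (7.06% to 7.69%), reads of low alignment quality (1.03% to 1.51%) and unaligned reads (1.07% to 1.61%). Per loop, the deposited lists hold the authors' tag count and q-value (false discovery rate), and 1 list is named for both replicates of a genotype. No loop caller is stated, though the lists' names hold the word mango.

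Genes passing filterByExpr were scaled by TMM (factors 0.931, 0.928, 1.07 and 1.08 for WT 1, WT 2, KO 1 and KO 2) and tested, two-sided, with edgeR 4.0.16 in R 4.3.3 (glmQLFTest after a robust glmQLFit), with Benjamini-Hochberg adjustment over 17273 genes. Each file is 1 biological replicate per the series design. The scripts were tested on simulated data. CPM values are TMM-scaled unless stated. Standard errors were back-calculated from each log2 fold change and its F value. A count of 0 allows up to 3 counts, or 0.0796 to 0.101 CPM. Alternatives were other scalings, no filter on low counts, DESeq2 1.42.0, a replicate block, each library left out, and other loop thresholds and windows.

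Positions of all 88 genes come from RefSeq on GRCm38.p6, the assembly of mm10. The rule named the paralogues and other rows, the 6 largest rises and 6 largest falls and the 5 genes of highest mean CPM among canonical proteins, those not called, the stalk and the 5S group, the 6 genes with the most loop tags, loops that join 2 members, and in each list the 2 largest called rises and falls. Some genes that this rule names are not reported here, and they are left out of the plots that name or place single genes. Other genes with values stand in the text as partners of a named gene, members of a role group or markers. The genes, lists, tests and rule were chosen with earlier results of these data known. The list of mitochondrial ribosomal proteins and the CACGTG search were added after the data were seen.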

Additional observations from a re-analysis of the deposited data

How the results depend on the processing

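With library size alone 62 ribosomal protein genes were higher and 9 lower, and the median log2 fold change was 0.25; it was 0.13 with upper-quartile factors. Under library size alone the log2 fold changes of Rps3a2 (0.11), Rps3a3 (0.13), Rps2 (0.040), Rps3a1 (0.18), Rpl11 (0.19) and Rplp1 (0.10) turned positive, as did Rps3a3 (0.0094) and Rpl11 (0.065) with upper-quartile factors, since both scalings shift all genes up. Rps29 and Rpl38 had opposite signs without KO replicate 1 (0.20 and 0.16) and without KO replicate 2 (-0.20 and -0.14). Leaving out 1 library at a time gave 36 to 45 genes higher, 24 to 33 lower, a median of 0.0083 (without KO replicate 2) to 0.056, with 0.012 without WT replicate 2, and a difference in count share of 1.59 to 1.76 percentage points. Of 39 named genes, 39 kept direction and side of the threshold without either WT replicate, without the filter, with RLE factors and with TMM factors computed without these genes, 38 with DESeq2, 32 without KO replicate 1 and 34 without KO replicate 2. Fewer of the 39 kept both under the remaining scalings: 23 with library size alone, where 6 turned sign, and 28 with upper-quartile factors, where 2 did. With 1 library left out, the lone library of a group is assumed to vary like the others.

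The share of kept tags at ribosomal protein genes moved with the loop settings. In the KO-labelled list it was 0.858% over all loops, 1.04% at 4 tags or more (WT-labelled 1.43%), 0.950% for anchors over an annotated end itself, 0.832% around transcription starts (WT-labelled 1.14%) and 1.50% without anchors of 10000 bases or more (WT-labelled 1.93%). It stayed larger in the WT-labelled list under each of these settings; the cause was not tested.

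The labels' replicate numbers were also used as a replicate block. Deviations of same-numbered libraries had a correlation of r = 0.0174 over all genes tested and -0.358 over the 87 ribosomal protein genes. These values cannot show whether same-numbered libraries share anything beyond the number. With the replicate block 41 genes were higher and 30 lower, the median was 0.043, and all 39 named genes kept their direction and side of the threshold.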
